A study of Mus musculus with 2 samples.

Results

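Olfr78, Olfr558, Olfr544 and Olfr545 are class I odorant receptors, the group of receptors that resembles those of fish and that responds mainly to carboxylic acids and other hydrophilic odorants. These 4 genes were chosen by name, because they are receptors of carboxylic acids and several have reported roles outside the nose. Olfr560 was added because the deposited table gives it the same locus and the same value as Olfr78. The 5 entries occupy 4 distinct loci and were taken from 1112 entries of olfactory receptor (Olfr) genes, of which 124 form the class I cluster on chromosome 7.

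The study measured receptor transcripts by RNA-seq in adult C57BL/6 mice. The tissue was the olfactory epithelium, the lining of the nasal cavity in which the odor-sensing neurons lie. Its 2 samples are both titled and genotyped as wild type, while the description fields read wt for the first and 3bko for the second. Each row of the deposited values also names wt and 3bko as its samples. The sources used here do not explain 3bko. The table has 1 FPKM value per entry (sequenced fragments, scaled to the length of the gene model and to the library size) that is tied to neither sample, so each value below is the authors' single value without replicates, standard deviation or test. Depth is unknown, and differences between receptors are given as ratios whose error could not be measured. The table held none of the 7 cell type markers fixed for the tissue, so the labelled tissue could not be checked against them.

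Odorant receptors are G protein-coupled receptors, and a mature olfactory sensory neuron typically transcribes a single receptor allele. In whole tissue, fewer neurons that chose a receptor and less receptor RNA per neuron therefore cannot be told apart. Olfr78, whose human counterpart is known as PSGR, responds to short-chain fatty acids such as acetate and propionate. It is known from renin-secreting cells of the kidney, from vascular smooth muscle and from the carotid body. Olfr558 is its relative and responds to short- and medium-chain acids such as butyrate. Olfr544 responds to azelaic acid, a dicarboxylic acid, and has been studied in adipose tissue, liver and pancreatic islets. Olfr545, also called S50, is a close relative of Olfr544 and also a receptor of dicarboxylic acids.

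All 5 coding sequences carry, in frame, codons of the form GANCGNTAN, which in these receptors encode the aspartate-arginine-tyrosine motif at the inner end of a transmembrane helix, a hallmark of the receptor family. The motif was searched in frame on the coding strand of GENCODE M21 coding sequences (mouse build GRCm38). This codon pattern was present in 78 of 124 genes of the class I cluster (62.9%) and in 721 of 1089 genes of the table with a coding sequence (66.2%). It takes only arginine codons of the form CGN, so genes with AGA or AGG there are not counted. These are therefore not shares of genes with the protein motif. The motif is shown here because the same stretch separates some of these receptors and not others. Each line gives 60 coding bases, 5′ to 3′, with the motif in capitals. Olfr564, the receptor closest to Olfr560 in sequence, is added.
Olfr78: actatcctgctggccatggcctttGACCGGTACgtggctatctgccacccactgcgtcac
Olfr558: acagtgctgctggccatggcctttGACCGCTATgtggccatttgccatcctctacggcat
Olfr560: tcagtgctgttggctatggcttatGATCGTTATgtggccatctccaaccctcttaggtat
Olfr564: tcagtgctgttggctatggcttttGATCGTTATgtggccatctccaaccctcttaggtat
Olfr544: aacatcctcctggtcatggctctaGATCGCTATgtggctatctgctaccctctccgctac
Olfr545: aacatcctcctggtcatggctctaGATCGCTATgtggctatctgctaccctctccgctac
The lines of Olfr544 and Olfr545 are identical, whereas those of Olfr78 and Olfr558 differ from each other on both sides of the motif and within it.

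The 5 entries had low to middling values. Olfr544 had the highest, at an FPKM of 1.02, and was the only one to reach an FPKM of 1. The locus of Olfr78 and Olfr560 followed at 0.866, Olfr545 at 0.365 and Olfr558 at 0.270. The highest value was 3.79 times the lowest. All 5 entries lay below the median of the whole table, 1.09, and 3 of the 5 (2 of the 4 loci) lay above the median of the class I cluster, 0.472. The 4 loci together held 2.90% of the summed FPKM of the cluster and 0.0853% of that of the table, with the shared locus counted once.

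**Figure D1:**
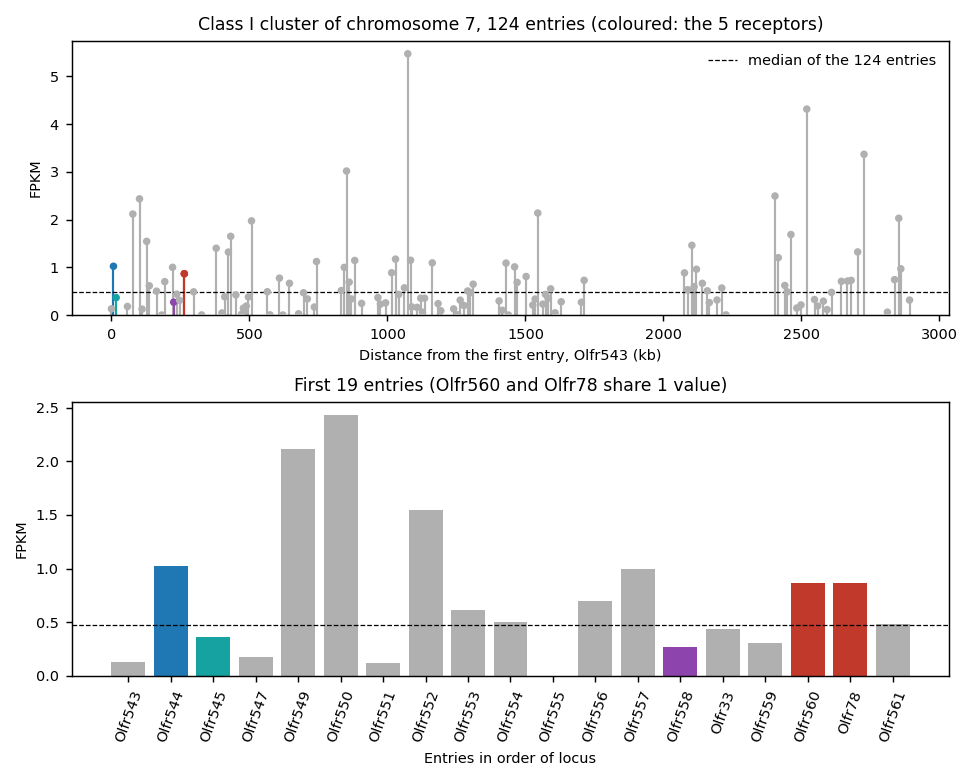
FPKM of the 124 entries of the class I cluster against distance from the first entry in kb (top) and of its first 19 entries in order of locus (bottom), with the 5 receptors coloured and the cluster median of 0.472 dashed. Olfr544 (1.02) and the shared locus of Olfr78 and Olfr560 (0.866) stand above the line, and Olfr545 (0.365) and Olfr558 (0.270) below it.

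Olfr544, the azelaic acid receptor, lies on chromosome 7 from 109632628 to 109636821 (mm9). It ranked 575th of the 1112 entries, with 48.3% of them below it, and 25th of the 124 in the class I cluster, with 79.8% below it. Its value was 2.16 times the cluster median. The locus is 4194 bp long, longer than the transcript annotated in GENCODE M21, which has 2 exons and 3270 bases, of which 1002 are coding.

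The locus from 109889235 to 109907985 on chromosome 7 (mm9), printed for both Olfr78 and Olfr560, ranked 631st in the table, with 43.2% of entries below it, and 33rd in the cluster, with 72.6% below it. At 0.866 it had 1.83 times the cluster median. No other locus of the table is printed for 2 entries.

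Olfr545 lies at 109642337 to 109643287 and ranked 842nd in the table and 72nd in the cluster, with 41.9% of cluster entries below it. Olfr558 lies at 109850837 to 109860568 and ranked 889th and 87th, with 29.8% of cluster entries below it. Counted among entries of status OK alone (status is described below), the shares of cluster entries below were 27.3% for Olfr545 and 14.1% for Olfr558. In the whole table they went from 24.3% to 7.37% and from 20.1% to 3.41%. The falls in the cluster follow from the filter. Every NOTEST entry of the cluster lay below Olfr545, and all but 2 lay below Olfr558. The cluster median was 1.29 times the value of Olfr545 and 1.75 times that of Olfr558. Neither rank is sharp, because many class I receptors had similar values. Within a ratio of 1.25 of the value lay 16 other cluster entries for Olfr544, 17 for Olfr78 (its partner Olfr560 included), 19 for Olfr545 and 16 for Olfr558. Without replicates, the order of a receptor and those neighbours could not be tested.

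Every one of the 5 entries carried the status OK, as did 99 of the 124 cluster entries (79.8%), while the other 25 were marked NOTEST. Status is a label printed in each deposited row, and OK was not read as a sign that a receptor was detected. Status did not follow the FPKM alone. Olfr558 was OK at 0.270, below the highest NOTEST value of the cluster, 0.308, which belonged to Olfr559. There were 2 NOTEST entries above Olfr558 and 14 OK entries below it, down to an OK value of 0.10.

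The receptors sit near one end of the cluster. In order of locus, Olfr544 is the 2nd entry, Olfr545 the 3rd, Olfr558 the 14th, and Olfr560 and Olfr78 the 17th and 18th, within 275 kb of a cluster 2893 kb long. The 14 other entries from the cluster start to Olfr561, the entry after Olfr78, had a median FPKM of 0.493, against 0.467 for the 105 entries beyond them. Values in this stretch ranged from 0 for Olfr555, which is listed at 0, to 2.43 for Olfr550, a gene named here after its value was seen. By comparison, the highest value of the whole cluster was 5.47, for Olfr613.

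Olfr544 had 7.84 times the value of Olfr543 (0.130), which ends 6211 bp before it, and 2.80 times that of Olfr545, which starts 5515 bp after it. Olfr545 had 2.04 times the value of Olfr547 (0.179, NOTEST), its neighbour on the other side. Olfr558 was lower than both neighbours. Olfr557, 3050 bp before it, had 3.71 times its value at an FPKM of 1.00, and Olfr33, 1400 bp after it, had 1.62 times its value at 0.436. The Olfr78 and Olfr560 locus was higher than both of its neighbours, with 2.81 times the value of Olfr559 and 1.78 times that of Olfr561 (0.486).

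By receptor family (MOR names of the RefSeq gene table), Olfr78 and Olfr558 belong to MOR18, Olfr544 and Olfr545 to MOR42, and Olfr560 to MOR14. MOR18 has 3 entries, and its remaining one, Olfr557, was the highest of them. Olfr78 had 3.21 times the value of Olfr558, whose locus ends 28666 bp before its own. MOR42 also has 3 entries, and its remaining one, Olfr543, was the lowest of them at 0.130. MOR14 has 8 entries in all, of which 5 were NOTEST. Apart from Olfr560 its values were 1.40 for Olfr566, 0.486 for Olfr561 and between 0.000897 and 0.0434 for Olfr568, Olfr574, Olfr583, Olfr564 and Olfr585. The value printed for Olfr560 is thus the second highest of MOR14, but it is the value of a locus that also holds Olfr78.

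**Figure D2:**
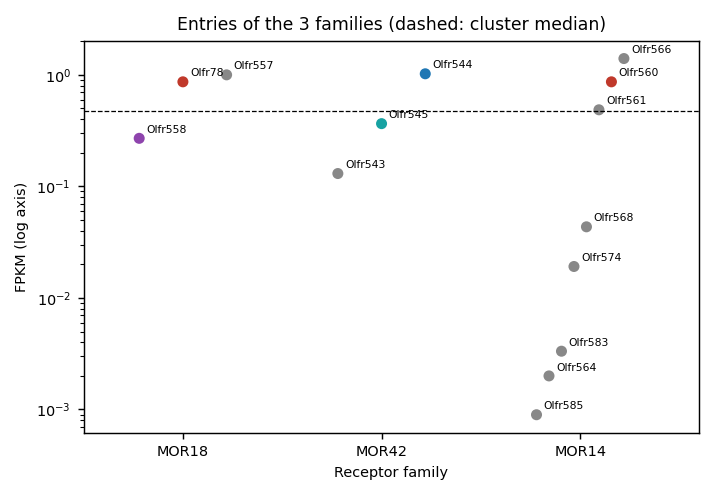
FPKM on a log axis for the entries of the families MOR18, MOR42 and MOR14, 1 point per entry, with the 5 receptors coloured and the cluster median of 0.472 dashed. The 3 entries of MOR18 and the 3 of MOR42 lie between 0.130 and 1.02, whereas 5 of the 8 MOR14 entries lie below 0.05.

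Olfr78 and Olfr560 are separate receptors on the same strand with overlapping annotated transcripts. Their coding sequences do not overlap, are 9984 bp apart in GENCODE M21 and were 64.2% identical over 917 aligned bases. Of the 4 annotated Olfr78 transcripts, 3 have a first exon that overlaps the first exon of Olfr560 and starts upstream of it, and 2 include an exon over the end of the Olfr560 coding sequence. In all, 926 exonic bases are shared, which is 42.7% of the exonic bases of Olfr560 and 15.3% of those of Olfr78. The shared bases include 148 of the 942 coding bases of Olfr560 (15.7%) and none of the coding bases of Olfr78. The printed locus has the extent of the RefSeq gene Olfr78, 18751 bp, whereas RefSeq gives Olfr560 945 bp. The annotated transcript Olfr78-204 reaches 20960 bp from the most upstream annotated start, further than the length of the printed locus. The 15.3% counts all its exonic bases, so it is not a share within that locus. How much of the 0.866 came from either gene was not tested, since the table has 1 value for both.

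**Figure D3:**
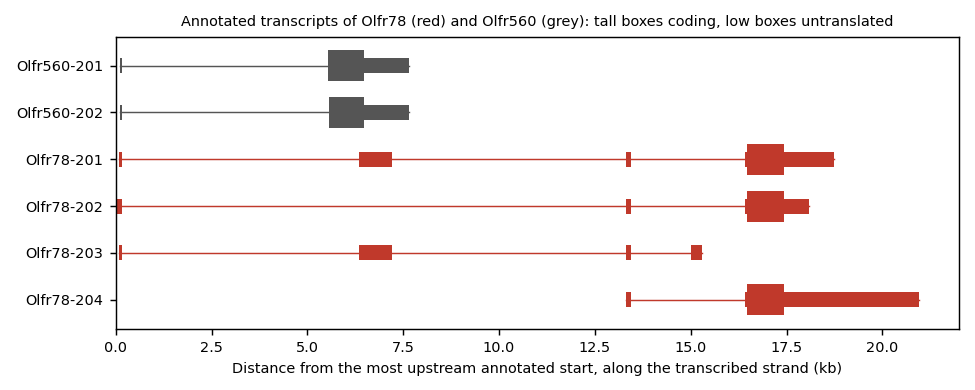
Annotated GENCODE M21 transcripts of Olfr78 (red) and Olfr560 (grey) by distance in kb from the most upstream annotated start, with coding parts as tall boxes and untranslated parts as low boxes. Of the 4 Olfr78 transcripts, 3 have a first exon that overlaps that of Olfr560 and 2 have an exon over the end of its coding part.

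Olfr544 and Olfr545 are the most alike of the 5 receptors, with 49 differences over 948 aligned coding bases (94.8% identity). The other pairs among the 5 were 56.0% to 64.6% identical, and the gene next closest to both was Olfr543 (66.7% to Olfr544 and 67.2% to Olfr545). The longest run without a difference covers bases 10 to 227 of both coding sequences, counted from 1 at the start codon, and is printed because reads from inside it fit both genes equally well.
Olfr544 and Olfr545: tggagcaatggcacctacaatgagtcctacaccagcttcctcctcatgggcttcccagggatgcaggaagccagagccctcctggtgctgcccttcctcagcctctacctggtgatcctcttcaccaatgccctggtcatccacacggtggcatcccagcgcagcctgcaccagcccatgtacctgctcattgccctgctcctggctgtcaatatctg

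Of the stretches of 60 bases aligned without a gap, the one with the most differences, 13, starts at base 599 of both coding sequences. It is printed with the differing bases in capitals, as an internal stretch that separates the genes. The ends of the coding sequences diverge further, with 14 of the 49 differences and a gap in the last 48 aligned bases.
Olfr544: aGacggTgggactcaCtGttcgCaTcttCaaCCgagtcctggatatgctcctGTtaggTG
Olfr545: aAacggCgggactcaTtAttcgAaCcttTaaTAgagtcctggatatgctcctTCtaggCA

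Of the 50-base stretches (50-mers) of the Olfr544 coding sequence, 347 of 953 (36.4%) also occur in Olfr545, which is 38.6% of the 899 of Olfr545. No other gene of GENCODE M21 shared a 50-mer with either. With 100-base stretches, 85.8% of those of Olfr544 and 84.9% of those of Olfr545 were unique among Olfr transcripts. The sources used here give neither the read length nor the treatment of reads that fit several genes, so the 2.80-fold difference between this pair is uncertain. The printed loci differ as well. The locus of Olfr545 is 951 bp, the coding sequence with its stop codon, although a 2-exon transcript of 3496 bases is annotated. The locus of Olfr544, 4194 bp, is longer than its annotated 2-exon transcript of 3270 bases. Reads from untranslated regions could therefore be counted for Olfr544 and not for Olfr545, and the effect of this on the ratio was not tested.

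Olfr78 and Olfr558 shared no 50-mer of their coding sequences with another gene. Their nearest receptors by coding sequence were Olfr557 for both, at 65.3% and 65.9% identity, ahead of each other at 64.6%. No 50-base coding stretch of either of these receptors of short-chain acids could thus be assigned to another gene. Olfr560 was intermediate, with 74.7% of 893 coding 50-mers unique. It shared 105 with Olfr564, to which it was 89.9% identical, 99 with Olfr78, through the overlapping exon, and 84 with the pseudogene Olfr562-ps1. Olfr564 had an FPKM of 0.00200.

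**Figure D4:**
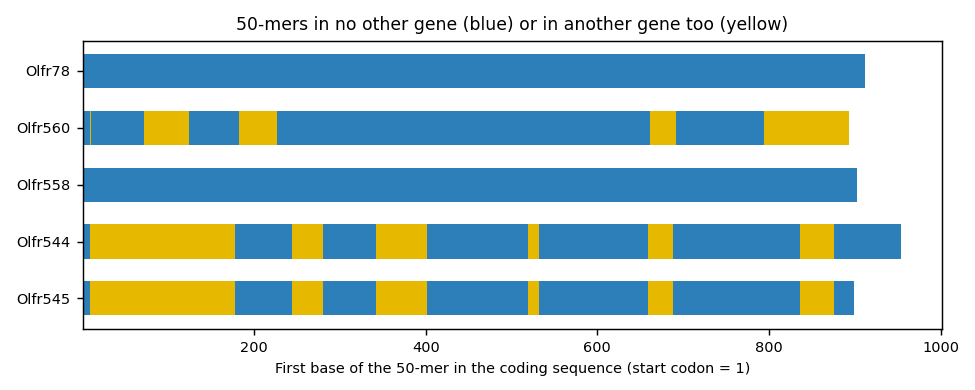
Each bar runs along the coding sequence of 1 receptor by the first base of each 50-mer, in blue where the 50-mer occurs in no other gene and in yellow where it does. Olfr78 and Olfr558 are blue throughout, Olfr560 is 74.7% blue, and Olfr544 and Olfr545 share their yellow stretches with each other.

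Of the 4 loci, 3 were over 1200 bp long. The gene models used by the authors are not given, so introns in them were not checked. Of the 124 cluster entries, 90 (72.6%) had a locus as long as the coding sequence, Olfr545 among them, and 11 had a locus over 1200 bp. Those 11 include Olfr544, Olfr558, Olfr560 and Olfr78. The other 7 ranged from 0, for Olfr631, to 5.47, for Olfr613, with a median of 0.261, against the cluster median of 0.472. For Olfr558, 9732 bp long, the annotated transcript has 2 exons and 3041 bases, 951 of them coding. FPKM is scaled to the length of the model used, and levels of receptors with and without untranslated regions in their models are comparable only as far as coverage was even.

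Other receptors known from non-olfactory tissues, all class II, gave a comparison list of 8, of which 7 were in the table. Their median FPKM was 2.06, and 6 of the 7 were above the median of the whole table, against none of the 5 class I entries. The highest was Olfr1392, a receptor found in kidney, at 9.64, which ranked 64th. It was followed by Olfr90 at 2.96, Olfr2, studied in vascular macrophages, at 2.17, Olfr734 at 2.06, Olfr1393, a kidney receptor, at 2.00, and Olfr16, known from sperm, at 1.38. The lowest was Olfr1373, at 0.509, which lay above Olfr545 and Olfr558 and below Olfr78 and Olfr544. The 124 entries of the class I cluster as a whole had 24 above the table median and the 988 entries outside it had 532. The 2 lists differ in class and position, which cannot be told apart from any other difference between them, and no test was made.

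**Figure D5:**
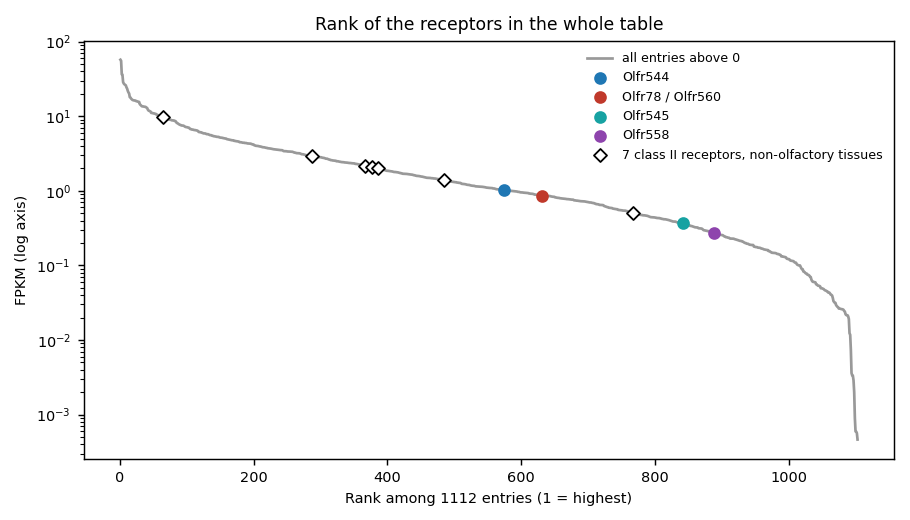
FPKM on a log axis against rank among the 1112 entries (line, entries above 0), with the class I receptors as coloured points and 7 class II receptors known from non-olfactory tissues as open diamonds. The class I points lie at ranks 575 to 889, and 6 of the 7 diamonds lie to their left.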

How the data were processed

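The deposited table holds 1 FPKM value per Olfr entry, computed by the authors. TopHat2, Bowtie2 and Cuffdiff and the build mm9 are named, without versions or roles, per the submitters' processing notes. The sources used here do not give annotation, read length, pooling or the treatment of multi-mapping reads. All coordinates are mm9, per the file headers' locus column, with 1 added to its 0-based starts. Among 257 low coding-only entries, the best of 4000 candidate read sizes brought 31.1% of values to within 0.1 of a whole number of reads (20% by chance for a single size), so reads were not recovered and depth is unknown.

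Python 3.11.15 with pandas 2.3.3 computed ranks from the top (ties share the better rank), medians and ratios. The cluster is the set of entries on chromosome 7 from 109625287 to 112517831. Coding sequences (longest per gene) and transcripts came from GENCODE M21. Identity was taken from global alignments (Biopython 1.88, end gaps free) over columns without gaps. The functions were tested on simulated data. MOR names came from the RefSeq gene table (GRCm38), in which 1104 entries matched. Its coordinates were not used. No protein table was used, so the planned nearest receptor by protein identity was replaced by coding identity.

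The members and lists were chosen with earlier results of these data known. The text names the 5 entries, their neighbours by locus and by coding sequence, their families, the extremes of the cluster and the class II list. No test was made, since there is 1 value per gene and both samples are titled as 1 group.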

Additional observations from a re-analysis of the deposited data

How the results depend on the processing

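All 5 entries stayed below the median of the table among entries at FPKM 0.1 or more (1016 entries) and among those of status OK (909), as did all 4 loci when the shared locus was counted once. The FPKM filter could not have changed this, because it removed only entries lower than all 5. The status filter also lowered the share of entries below a receptor, for Olfr544 from 48.3% to 36.7%. Neither filter is therefore independent support. With FPKM multiplied by locus length, which could be done for the 802 coding-only loci, 1 entry remained, Olfr545, and it was below the median (1 in place of 5, by construction). The number below the class I median was 2 with the shared locus counted once, among entries at FPKM 0.1 or more, among OK entries and with class I set by MOR names from 1 to 42 (127 entries, 6 of them outside the cluster). Percentages of class I entries below each receptor ranged from 74.7 to 79.8 for Olfr544, 65.7 to 73.2 for Olfr78, 27.3 to 43.3 for Olfr545 and 14.1 to 31.5 for Olfr558, over the cluster and its alternatives and the 127 entries by MOR name. The lowest of each were among OK entries. Log2 differences from the cluster median, with pseudocounts of 0.01, 0.1 and 1, ran from 0.46 to 1.10 for Olfr544 and from -0.79 to -0.21 for Olfr558. Their sign was fixed by construction, because the same pseudocount was added to the receptor and to the median. No paired analysis was possible because there is a single group and 1 value per gene, and values without replicate 1 or 2 were not run for the same reason. Depth is unknown, so counting error in these low values could not be given.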
